A study of Arabidopsis thaliana with 10 samples.

Results

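The comparison described here set the 2 libraries of the Arabidopsis thaliana triple mutant atbmi1abc against the 2 libraries of wild type (WT), which together are 4 of the 10 libraries of the series and were chosen by the genotype in the labels. Every library was made from total RNA of seedlings of ecotype Col-0 at 10 DAG (days after germination). WT carried no mutation, and atbmi1abc carried mutations in AtBMI1A, AtBMI1B and AtBMI1C and was described by the submitters as a strong triple mutant. The strong double mutant atbmi1ab_strong, mutated in AtBMI1A and AtBMI1B, served in 2 libraries to show where the triple mutant differed from its closest genotype, and the single mutants atbmi1a and atbmi1b (2 libraries each) shared the estimate of spread. The sources used here name neither the mutant alleles nor the number of seedlings per library. They also do not say whether the libraries of 1 genotype stem from independently grown seedlings, and p-values therefore reflect the variation among these libraries alone. In RNA of seedlings, fewer cells of a type and less RNA per cell cannot be told apart.

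Polycomb repressive complex 1 (PRC1) of plants places a single ubiquitin on histone H2A. Its catalytic core pairs an AtRING1 protein with an AtBMI1 protein, and the B3-domain proteins VAL1 and VAL2 bring it to genes that carry the RY sequence. Polycomb repressive complex 2 (PRC2) trimethylates histone H3 at lysine residues of many of the same genes. In germinating seedlings the pathway is known for switching off the seed maturation programme, which is run by LEC1, ABI3, FUS3 and LEC2, and for keeping organ identity and flowering genes in check.

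The values were read as FPKM, fragments scaled to transcript length and to the number of mapped fragments, for 27086 loci per library. FPKM summed to 886169 and 990295 in the WT libraries and to 857572 and 897252 in the atbmi1abc libraries. Read from the steps between low values, the depth of the other 3 libraries was 0.818 to 1.021 times that of WT replicate 1, with atbmi1abc replicate 2 the shallowest. On the log2 scale the WT pair correlated at 0.983 across the tested loci and the atbmi1abc pair at 0.977, against 0.544 to 0.572 between the genotypes. Transcripts of the chloroplast genome made up 0.744% and 2.245% of all FPKM in the WT libraries, which thus differed among themselves, and 0.008% and 0.24% in atbmi1abc. The WT libraries carried the markers of green tissue, roots, guard cells and vessels that a seedling should have. None of the 8 endosperm and 8 pollen markers reached the level needed for testing.

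Differences were tested with limma on log2(FPKM + 1) over 19460 loci whose mean over the 10 libraries reached 1 FPKM, and a locus was called at a Benjamini-Hochberg adjusted p under 0.05. Fold changes below are log2 differences with their standard error (SE) on this scale, where differences of genes with low values come out too small. In all, 74.0% of the tested loci were called, 36.3% higher and 37.7% lower in atbmi1abc than in WT, and 19.1% and 23.5% were called with a difference above 1 in either direction. These shares are the background against which each gene list is read. Both atbmi1abc libraries lay above both WT libraries at 43.3% of the tested loci and below both at 44.2%, and against atbmi1ab_strong these shares were 46.2% and 34.6%, so a lack of overlap sets no gene apart from the rest. The lists held 714 genes, of which 628 passed the level filter. A gene silent in WT could pass only where a mutant raised it, so a count of higher members among those tested is a description of these libraries and no support for a direction.

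**Figure D1:**
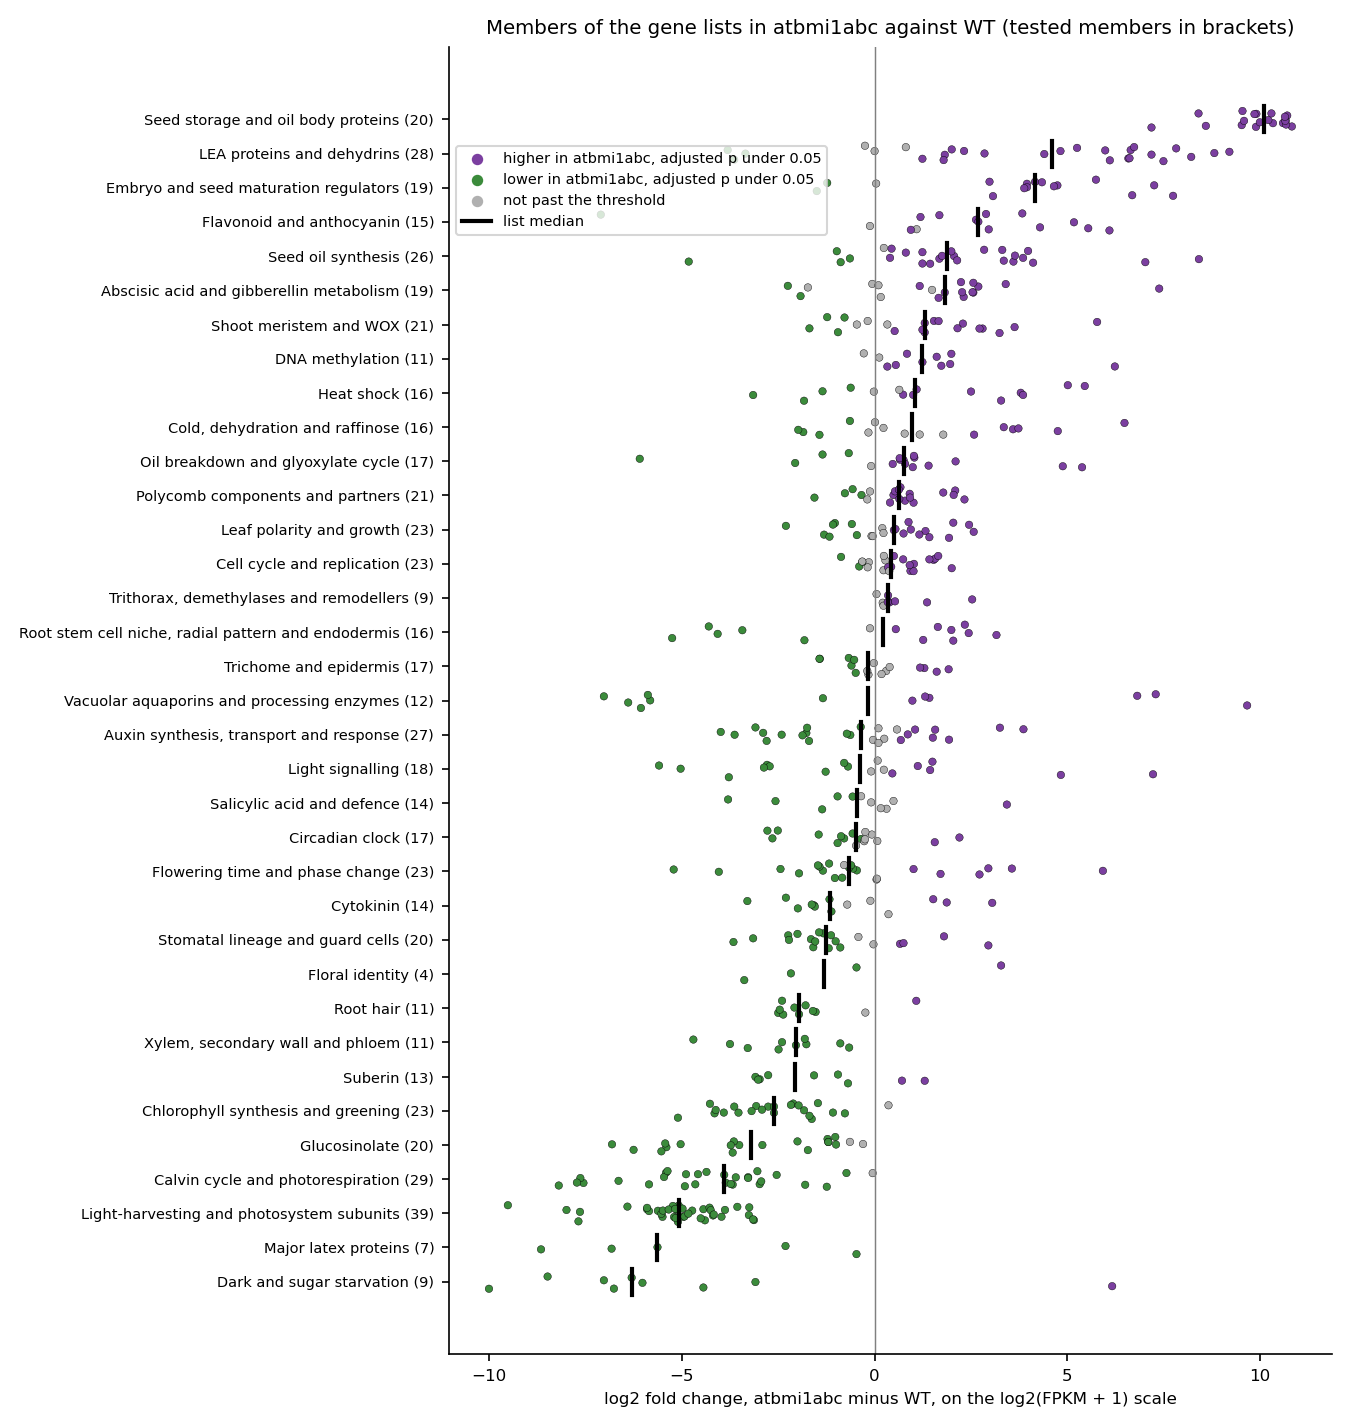
log2 fold change (atbmi1abc minus WT, on the log2(FPKM + 1) scale) of each tested member of the gene lists, 1 point per gene, coloured by call, with the list median as a black bar; members listed at 0 in both libraries of 1 genotype are not drawn. Lists run from seed storage proteins with a median of 10.10 at the top to dark and sugar starvation genes with a median of -6.30 at the bottom, and the light-harvesting list has no member to the right of 0.

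The targeted genes came first. AtBMI1A stood at 6.91 and 6.08 FPKM in WT and 10.3 and 13.7 in atbmi1abc (0.79 ± 0.16, adjusted p = 0.00265). AtBMI1B stood at 6.34 and 5.86 FPKM in WT and 3.89 and 3.64 in atbmi1abc (-0.57 ± 0.12, adjusted p = 0.00242). AtBMI1C stood at 0.136 and 0.0456 FPKM in WT and 3.04 and 4.35 in atbmi1abc (2.09 ± 0.18, adjusted p = 1.66e-05). Measured against the 4 libraries of the single mutants, AtBMI1A was not called (-0.32, adjusted p = 0.0685) and AtBMI1B was higher (0.59, adjusted p = 0.000989). That reference averages atbmi1a and atbmi1b, so for either gene it includes libraries mutated in the gene itself and is no unmutated baseline. In the libraries labelled atbmi1abc, RNA from 2 of the 3 mutated loci was therefore higher than in WT. Such totals do not show whether the transcripts were intact, so they do not test the label, and each direction below refers to the libraries labelled atbmi1abc.

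Polycomb genes were mostly more abundant in atbmi1abc. Of 21 tested components and partners, 15 were higher and 4 lower, with a median fold change of 0.64 against -0.005 over all tested loci. These counts and the median include the AtBMI1 genes, of which AtBMI1A and AtBMI1C were higher and AtBMI1B lower. RING1A, the partner of the AtBMI1 proteins in PRC1, had 5.56 and 6.19 FPKM in WT and 21.3 and 23.95 in atbmi1abc (1.78 ± 0.14, adjusted p = 9.52e-06), and RING1B rose by 2.05 ± 0.10. The recruiter VAL1 had 12.1 and 13.4 FPKM in WT and 62.0 and 74.9 in atbmi1abc (2.33 ± 0.12, adjusted p = 1.01e-06), its relative VAL2 rose by 0.92 ± 0.09. The groups did not overlap for any of these genes, as at most loci. Of the PRC2 subunits, FIE (1.01 ± 0.09), MSI1 (0.91 ± 0.14), SWN (0.67 ± 0.10), VRN2 (0.49 ± 0.12) and EMF2 (0.40 ± 0.10) rose, although VRN2 was not called against the single mutants (0.20, adjusted p = 0.111). CLF, another PRC2 methyltransferase, moved from 10.3 and 11.1 FPKM in WT to 8.89 and 7.59 in atbmi1abc (-0.34 ± 0.14, adjusted p = 0.0493), a call that missed the threshold when WT replicate 1 (adjusted p = 0.0842), WT replicate 2 (adjusted p = 0.181) or atbmi1abc replicate 2 (adjusted p = 0.231) was left out, against the single mutants (adjusted p = 0.386), with a pseudocount of 0.1 and after quantile normalization.

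VIN3, the cold-induced PRC2 partner of vernalization, was at 0 in each WT library and at 7.89 and 9.14 FPKM in atbmi1abc, against 1.02 and 1.42 in atbmi1ab_strong. Its relative VEL1 went the other way, with 55.5 and 61.6 FPKM in WT and 19.9 and 18.5 in atbmi1abc (-1.56 ± 0.09, adjusted p = 1.73e-06). EMF1, a plant-specific PRC1-associated protein, fell by 0.77 ± 0.13 on the log2 scale but was not called against the single mutants (-0.25, adjusted p = 0.0664), and neither LHP1, the reader of trimethylated histone H3 (-0.12 ± 0.10, adjusted p = 0.31), nor ALP1 (-0.19 ± 0.12, adjusted p = 0.21) passed the test. MEA and FIS2, PRC2 subunits of the endosperm, were at or near 0 in every library and were not tested. VRN1, VRN5 and BLI rose by 0.53 to 0.64, where VRN5 was not called against the single mutants (-0.06, adjusted p = 0.511), and VAL3 was below the level filter.

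Among 9 genes of trithorax proteins, histone demethylases and chromatin remodellers, 6 were higher and none lower. ULT1, a SAND-domain trithorax factor, had 17.62 and 16.8 FPKM in WT and 95.6 and 114 in atbmi1abc (2.53 ± 0.14, adjusted p = 1.48e-06). The demethylase gene JMJ13 rose by 1.36 ± 0.19 and the remodeller SYD by 0.53 ± 0.10. The DNA methylation list had 9 of 11 members higher and none lower. VIM5, a relative of the VIM1 protein that guides maintenance methylation, had 0.0757 and 0.0382 FPKM in WT and 75.6 and 81.5 in atbmi1abc (6.23 ± 0.40, adjusted p = 3.21e-06), against 4.65 and 4.32 in atbmi1ab_strong. The demethylase gene ROS1 (7.73 and 8.74 FPKM in WT to 35.7 and 35.4 in atbmi1abc, 1.99 ± 0.12), VIM1 (13.8 and 13.9 FPKM in WT to 55.8 and 58.2 in atbmi1abc, 1.96 ± 0.13) and the chromomethylase gene CMT2 (9.47 and 9.28 FPKM in WT to 32.3 and 34.4 in atbmi1abc, 1.73 ± 0.08) also rose.

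Embryo and seed maturation regulators were mostly higher in atbmi1abc. Of 23 with values, 19 were tested, 16 were higher and 2 lower, and the median fold change was 4.16 (4.06 without the 3 members listed at 0 in WT). LEC1, the first of the master regulators, had 0.0958 and 0 FPKM in WT and 14.7 and 15.701 in atbmi1abc (3.95 ± 0.26, adjusted p = 3.96e-06). Its close relative L1L had 0 and 0.193 FPKM in WT and 225 and 239 in atbmi1abc (7.74 ± 0.61, adjusted p = 1.08e-05). ABI3, the B3-domain regulator that answers abscisic acid, had 0.0520 and 0.0263 FPKM in WT and 101 and 111 in atbmi1abc (6.68 ± 0.45, adjusted p = 4.32e-06). In each case both WT libraries were near 0 and both atbmi1abc libraries far above them. LEC2, the third B3-domain master regulator, stayed under 1 FPKM in every library compared (0 and 0.0645 FPKM in WT and 0.125 and 0.546 in atbmi1abc) and was not tested.

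Most other regulators of this list were higher as well. WRI1, which drives fatty acid synthesis, had 4.56 and 7.43 FPKM in WT and 173 and 169.8 in atbmi1abc (4.65 ± 0.20, adjusted p = 4.55e-07). DOG1, the dormancy gene, had 4.11 and 6.13 FPKM in WT and 106 and 139 in atbmi1abc (4.34 ± 0.50, adjusted p = 9.5e-05). The AP2-domain genes BBM (0.833 and 1.49 FPKM in WT to 50.5 and 62.1 in atbmi1abc, 4.74 ± 0.26) and AIL5 (1.78 and 2.04 FPKM in WT to 149 and 159 in atbmi1abc, 5.74 ± 0.27), which can set off embryo formation when overexpressed, rose in both libraries. Of the bZIP factors that bind maturation promoters, EEL rose by 4.16 ± 0.18 and ABI5 by 3.07 ± 0.26, while bZIP67 was at 0 in each WT library and at 76.1 and 76.2 FPKM in atbmi1abc. Not all bZIP members did so: bZIP25 had 52.8 and 50.4 FPKM in WT and 17.5 and 17.7 in atbmi1abc (-1.5 ± 0.09, adjusted p = 2.02e-06), and bZIP10 did not pass the test (0.04 ± 0.10, adjusted p = 0.729). AGL15, a MADS-box gene of embryos, rose by 3.95 ± 0.16, and its relative AGL18 fell by 1.23 ± 0.13 on the log2 scale.

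WOX genes of the early embryo separated the triple from the double mutant. WOX2, which marks the apical cell lineage, had 0.755 and 0.544 FPKM in WT and 30.2 and 17.7 in atbmi1abc (3.88 ± 0.25, adjusted p = 3.36e-06) but 0.636 and 1.21 in atbmi1ab_strong (3.67 ± 0.25, adjusted p = 1.77e-05 for atbmi1abc minus atbmi1ab_strong). WOX9 had 0.108 and 0.163 FPKM in WT and 6.68 and 9.42 in atbmi1abc and 0.372 and 0.110 in the double mutant (2.86 ± 0.19, adjusted p = 1.64e-05). WOX8, a basal lineage gene, was listed at 0 in WT, at 15.3 and 17.77 FPKM in atbmi1abc and at 1.81 and 2.34 in the double mutant. LEC1, at 1.22 and 0.878 FPKM in atbmi1ab_strong, was also higher in the triple mutant (2.99 ± 0.26, adjusted p = 6.48e-05), as was BBM (1.94 ± 0.26, adjusted p = 0.000628). FUS3 was higher than in the double mutant as well (1.63 ± 0.54, adjusted p = 0.0339), but each of the 4 libraries left out in turn ended that call (adjusted p from 0.0973 to 0.114). In the whole embryo list, 10 of 19 tested members were higher than in the double mutant and 2 lower. Of all tested loci, 32.1% were higher and 25.2% lower. L1L (1.04, adjusted p = 0.177) and ABI3 (1.04, adjusted p = 0.0781) were not called, though both were higher without atbmi1a replicate 1. ABI5 was lower (-0.86, adjusted p = 0.022), a call lost when atbmi1abc replicate 1 was left out. HSFA9, MYB118 and MYB115 stayed under 1 FPKM in all these libraries and were not tested.

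**Figure D2:**
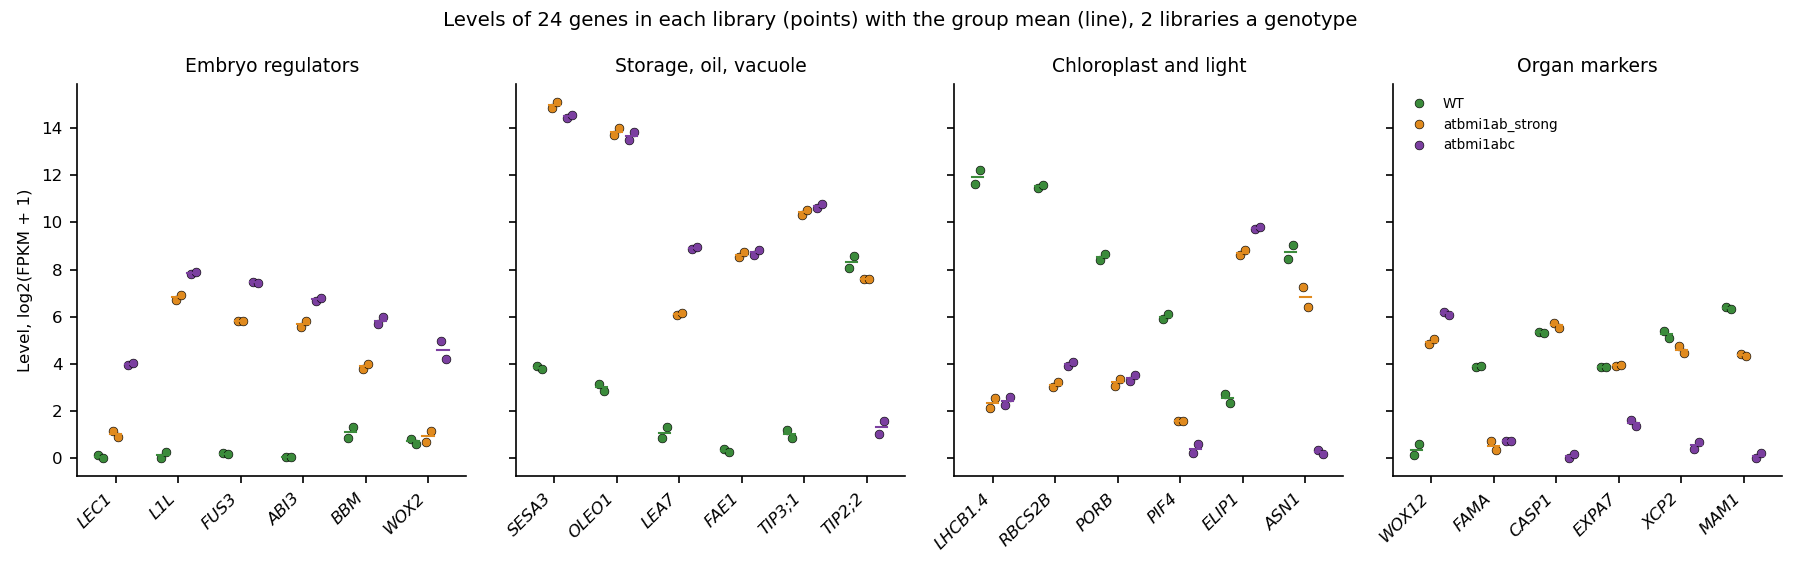
log2(FPKM + 1) of 24 genes in each library of WT, atbmi1ab_strong and atbmi1abc, 1 point per library with a line at the group mean. LEC1 and WOX2 are high in atbmi1abc alone, storage genes are high in both mutants, and CASP1, EXPA7 and XCP2 are near WT in the double mutant and far lower in the triple mutant.

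Storage proteins and oil body proteins are the end products of seed maturation, and their genes made up 14.4% and 16.5% of the FPKM sum in the atbmi1abc libraries, against 0.00943% and 0.00719% in WT. All 20 tested members of 21 were higher, with fold changes from 7.18 for AT2G18540 to 10.82 for the 12S globulin gene CRA1. CRU2, another 12S globulin gene, had 3.01 and 3.03 FPKM in WT and 4454 and 5975 in atbmi1abc (10.33 ± 1.33, adjusted p = 0.00018), and the oleosin gene OLEO2 had 3.45 and 2.74 FPKM in WT and 6097 and 6984 in atbmi1abc (10.64 ± 1.44, adjusted p = 0.00024). For every tested member both atbmi1abc libraries lay above both WT libraries, against 43.3% of all tested loci. SE values were wide, 0.63 to 1.56. Replicate 1 of atbmi1a, which entered the pooled spread, held these transcripts at 0.417% of its FPKM sum against 0.00696% in replicate 2, and with that library left out the SE values were 0.13 to 0.32. HSD1, the remaining member, was listed at 0 in all 6 libraries. Against atbmi1ab_strong only CRA1 and CRU3 were called, and both were listed at 0 in the double mutant, where an exact 0 can be a failed estimate at a very high level.

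The promoters of these genes are printed because the groups that moved furthest differed in the motifs they held. Each is the 250 bases before the gene's RefSeq start in TAIR10.1, 5′ to 3′ along the gene. Capitals mark the RY core CATGCA, the site of the B3-domain regulators, the G-box CACGTG, the site of bZIP and PIF factors, and the I-box GATAAG of light-regulated genes, each on either strand, and overlapping RY cores run together. The first 3 belong to a 2S albumin, an oleosin and a 12S globulin gene, and the last 2 to a Rubisco small subunit gene and a photosystem I antenna gene that fell.
SESA3 (chr4:13611546-13611795, plus strand): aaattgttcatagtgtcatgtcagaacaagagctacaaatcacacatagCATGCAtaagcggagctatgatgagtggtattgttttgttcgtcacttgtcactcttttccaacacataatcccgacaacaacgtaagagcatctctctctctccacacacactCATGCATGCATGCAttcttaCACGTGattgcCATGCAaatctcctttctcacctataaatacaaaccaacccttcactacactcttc
OLEO1 (chr4:12900180-12900429, plus strand): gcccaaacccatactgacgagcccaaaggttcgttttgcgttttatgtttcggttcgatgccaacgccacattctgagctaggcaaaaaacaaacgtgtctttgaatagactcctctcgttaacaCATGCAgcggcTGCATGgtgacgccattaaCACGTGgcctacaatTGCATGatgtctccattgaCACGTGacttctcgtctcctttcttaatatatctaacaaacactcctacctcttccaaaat
CRA1 (chr5:17758337-17758586, minus strand): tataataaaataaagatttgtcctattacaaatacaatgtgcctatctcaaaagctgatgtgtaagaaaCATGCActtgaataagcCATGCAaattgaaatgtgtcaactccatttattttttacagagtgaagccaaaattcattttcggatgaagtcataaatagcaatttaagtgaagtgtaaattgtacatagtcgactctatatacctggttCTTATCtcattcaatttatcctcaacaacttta
RBCS2B (chr5:15382072-15382321, minus strand): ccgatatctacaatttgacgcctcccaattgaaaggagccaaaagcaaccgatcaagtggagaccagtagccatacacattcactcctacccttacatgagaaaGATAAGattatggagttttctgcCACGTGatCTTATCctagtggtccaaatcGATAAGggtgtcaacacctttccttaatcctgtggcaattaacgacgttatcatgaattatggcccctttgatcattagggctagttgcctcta
LHCA1 (chr3:20341177-20341426, minus strand): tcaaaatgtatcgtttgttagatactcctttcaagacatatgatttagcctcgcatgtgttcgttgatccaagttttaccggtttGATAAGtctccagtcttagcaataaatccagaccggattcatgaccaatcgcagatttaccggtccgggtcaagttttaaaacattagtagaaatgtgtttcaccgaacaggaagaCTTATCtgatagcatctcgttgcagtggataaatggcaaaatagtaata
The SESA3 window held 7 RY cores and 1 G-box, that of OLEO1 3 and 2, and that of CRA1 2 RY cores and 1 I-box. The RBCS2B window held 3 I-boxes with 1 G-box and no RY core, and that of LHCA1 2 I-boxes and neither of the others. RBCS2B does not stand for its list, since 4 of 30 promoters of the Calvin cycle and photorespiration list (13.3%) held an I-box, close to the 12.2% of all promoters. In the light-harvesting list 10 of 39 promoters (25.6%) held one, so most lacked the motif shown for LHCA1. Among the storage genes, CRU2 and AT2G18540 held no RY core. SESA3 does not stand for that list either, since CRU3 held 1 RY core, SESA1 and OLEO2 held 2 each and SESA4 held 6.

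An RY core was found in 8.53% of all 26167 promoters, in 13.6% of those of loci higher by more than 1 in atbmi1abc and in 39.6% (93 of 235) of those higher by more than 5, with an exact 95% binomial interval of 33.3% to 46.1%. The share was 8.05% for loci lower by more than 1. In the storage list 19 of 21 promoters held one, and in the LEA list 8 of 30. The full RY repeat CATGCATG, which contains 2 overlapping cores, stood in 0.799% of all promoters, in 20 of the 235 and in none of the 214 promoters of loci lower by more than 5. A G-box was found in 6.53% of all promoters, in 26.4% of those higher by more than 5 and in 16 of 30 LEA promoters. Lists that fell held it too, in 7 of 39 light-harvesting promoters (17.9%) and 5 of 30 Calvin cycle promoters (16.7%). Its share was 7.94% in loci lower by more than 5. An I-box was found in 12.2% of all promoters, in 12.3% of those higher by more than 5 and in 23.4% (50 of 214) of those lower by more than 5. With 150 in place of 250 bases the RY core was in 5.01% of all promoters and 31.9% of those higher by more than 5, and the I-box in 7.56% of all and 18.7% of those lower by more than 5. These are matches of letters and not bound sites, promoters of gene families share sequence, and the evening element AAATATCT (4.88% of all promoters, 3.4% and 6.07% of those higher and lower by more than 5) and the telo-box AAACCCTA (4.45%, 1.28% and 1.4%) were searched in the same way.

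**Figure D3:**
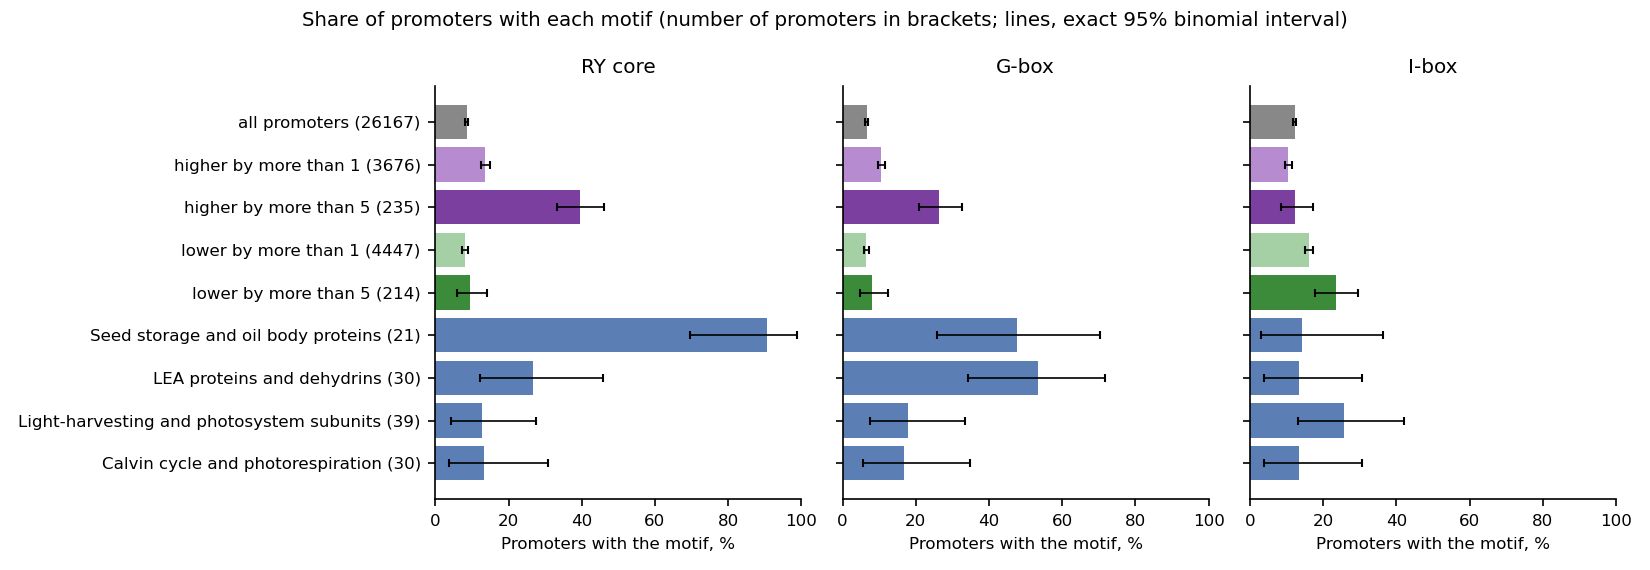
Share of promoters (percent) that hold the RY core, the G-box or the I-box on either strand within 250 bases before the start, for all promoters, for loci called higher or lower in atbmi1abc by more than 1 or 5 on the log2 scale and for 4 gene lists; lines are exact 95% binomial intervals. The RY core stands at 39.6% in loci higher by more than 5 and at 90.5% in the storage list against 8.53% of all promoters, while the I-box stands at 23.4% in loci lower by more than 5 and at 25.6% in the light-harvesting list but at 13.3% in the Calvin cycle list, against 12.2% of all promoters.

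Genes of LEA proteins, which protect drying cells, were mostly higher. Of 28 tested members, 22 were higher and 3 lower, with a median of 4.61. The seed-type gene LEA4-5 had 0.428 and 1.19 FPKM in WT and 444 and 611 in atbmi1abc (8.21 ± 0.60, adjusted p = 7.03e-06), the locus AT4G21020 rose by 9.20 ± 1.15 and LEA7 rose from 0.804 and 1.504 FPKM in WT to 464 and 496 in atbmi1abc (7.82 ± 0.49). The 3 lower members were the dehydrin genes COR47, ERD14 and HIRD11, while XERO1, also a dehydrin gene, rose by 5.98. COR47 had 227 and 202 FPKM in WT and 17.5 and 15.1 in atbmi1abc (-3.64 ± 0.18, adjusted p = 9.21e-07) and 1014 and 763 in atbmi1ab_strong, and ERD14 had 374 and 338 FPKM in WT and 23.2 and 25.9 in atbmi1abc (-3.81 ± 0.25, adjusted p = 4.15e-06) and 747 and 618 in the double mutant. For COR47 and ERD14 both libraries of the double mutant were above WT and both of the triple mutant below it.

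Seed oil genes rose in 21 of 26 cases and fell in 4, with a median of 1.87. FAE1, the elongase of seed very-long-chain fatty acids, had 0.2997 and 0.201 FPKM in WT and 393 and 458 in atbmi1abc (8.41 ± 0.88, adjusted p = 5.33e-05), the seed sucrose synthase gene SUS2 rose by 7.02 ± 0.51 and the acyltransferase gene PDAT2 by 4.11 ± 0.20. Against these, WRI4, the WRI1 relative that serves wax synthesis in stems, had 47.1 and 58.8 FPKM in WT and 1.18 and 0.666 in atbmi1abc (-4.82 ± 0.17, adjusted p = 1.86e-07). Measured against the single mutants, WRI4 fell by 2.44 on the log2 scale. PDAT1 fell by 0.98 ± 0.11 on the log2 scale against WT. The genes that burn seed oil in a germinating seedling, by beta-oxidation and the glyoxylate cycle, were higher in 12 of 17 cases and lower in 4. MLS, malate synthase of the glyoxylate cycle, had 10.5 and 6.35 FPKM in WT and 330.3 and 219 in atbmi1abc (4.88 ± 0.40, adjusted p = 1.41e-05). ICL, isocitrate lyase, had 42.4 and 3.10 FPKM in WT and 598 and 516 in atbmi1abc (5.38 ± 1.25, adjusted p = 0.00472), with the WT libraries far apart. MFP2 rose by 2.1 ± 0.17, while PMDH2, a peroxisomal malate dehydrogenase gene, had 544 and 636 FPKM in WT and 6.73 and 8.65 in atbmi1abc (-6.09 ± 0.13, adjusted p = 3.7e-08) and the lipase gene SDP1 fell by 2.06 ± 0.17 on the log2 scale, and by 0.49 against the single mutants.

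The vacuole list split evenly, 6 higher and 6 lower of 12. TIP3;1, the aquaporin of protein storage vacuoles, had 1.31 and 0.806 FPKM in WT and 1543 and 1771 in atbmi1abc (9.66 ± 1.24, adjusted p = 0.000178), its relative TIP3;2 rose by 7.29 ± 0.90 and the seed processing enzyme gene betaVPE rose by 6.81 ± 0.62. TIP2;2, an aquaporin of the vegetative vacuole, had 271 and 382 FPKM in WT and 1.06 and 1.999 in atbmi1abc (-7.02 ± 0.22, adjusted p = 1.11e-07). The other vegetative aquaporin genes TIP1;1, TIP1;2, TIP2;1 and TIP2;3 fell by 5.82 to 6.39 on the log2 scale. Against the double mutant these 3 seed forms were not called (adjusted p from 0.542 to 0.873), but without atbmi1a replicate 1 betaVPE was higher (0.47 ± 0.12, adjusted p = 0.0127) and TIP3;2 lower (-0.59 ± 0.22, adjusted p = 0.0481). TIP2;2 was far lower (195 and 193 FPKM in atbmi1ab_strong; -6.29 ± 0.22, adjusted p = 7.56e-07).

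Photosynthesis genes were lower almost without exception. All 39 tested light-harvesting and photosystem genes were called lower, with a median of -5.08, and their share of the FPKM sum was 15.9% and 17.7% in WT and 0.542% and 0.554% in atbmi1abc. LHCA1, an antenna protein of photosystem I, had 4290 and 5763 FPKM in WT and 76.4 and 88.5 in atbmi1abc (-5.90 ± 0.17, adjusted p = 7.86e-08). LHCB4.2, a minor antenna protein of photosystem II, had 3098 and 3984 FPKM in WT and 14.2 and 18.5 in atbmi1abc (-7.68 ± 0.20, adjusted p = 5.48e-08). LHCB1.1 fell by 7.99 ± 0.17 on the log2 scale, and reads of the LHCB1 members may have been shared out among their near-identical sequences. For all 39 genes both WT libraries lay above both atbmi1abc libraries, against 44.2% of all tested loci. The low level was shared with atbmi1ab_strong, where the list held 0.521% and 0.586% of the FPKM sum. Against that genotype 8 of the 39 were higher and 1 lower in atbmi1abc, where 32.1% of all tested loci were higher and 25.2% lower.

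Of 29 tested genes of the Calvin cycle and photorespiration, 28 were lower and none higher, with a median of -3.90. RBCS2B, a Rubisco small subunit gene with near-identical copies, had 2833 and 3086 FPKM in WT and 14.0 and 15.73 in atbmi1abc (-7.55 ± 0.14, adjusted p = 3.13e-08), and RBCS1A had 14842 and 15398 FPKM in WT and 1017 and 1059 in atbmi1abc (-3.86 ± 0.09, adjusted p = 4.71e-08). The carbonic anhydrase gene CA1 had 1012 and 1176 FPKM in WT and 1.94 and 3.76 in atbmi1abc (-8.19 ± 0.20, adjusted p = 4.71e-08). Per length, RBCS1A thus kept a far higher level in atbmi1abc than RBCS2B. The Calvin cycle and photorespiration list held 5.01% and 4.74% of the FPKM sum in WT and 0.360% and 0.341% in atbmi1abc. In atbmi1ab_strong it was low as well, at 0.286% and 0.309%. Chlorophyll synthesis and greening genes were lower in 22 of 23 cases, with a median of -2.61. PORB, which makes chlorophyllide in the light, had 336 and 404 FPKM in WT and 8.82 and 10.7 in atbmi1abc (-5.10 ± 0.17, adjusted p = 1.41e-07), CRD1 had 1316 and 1535 FPKM in WT and 85.3 and 73.4 in atbmi1abc (-4.15 ± 0.11, adjusted p = 5.35e-08), and CHLI2 and PORC fell by 4.27 ± 0.15 and 4.12 ± 0.10 on the log2 scale. Measured against the single mutants, PORB fell by 2.73 on that scale. Against atbmi1ab_strong, 15 of the 23 were higher and 1 lower, where 32.1% of all tested loci were higher and 25.2% lower. GUN4, an activator of the pathway, had 6.03 and 6.89 FPKM in the double and 12.1 and 12.1 in the triple mutant (0.81 ± 0.12, adjusted p = 0.000879).

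**Figure D4:**
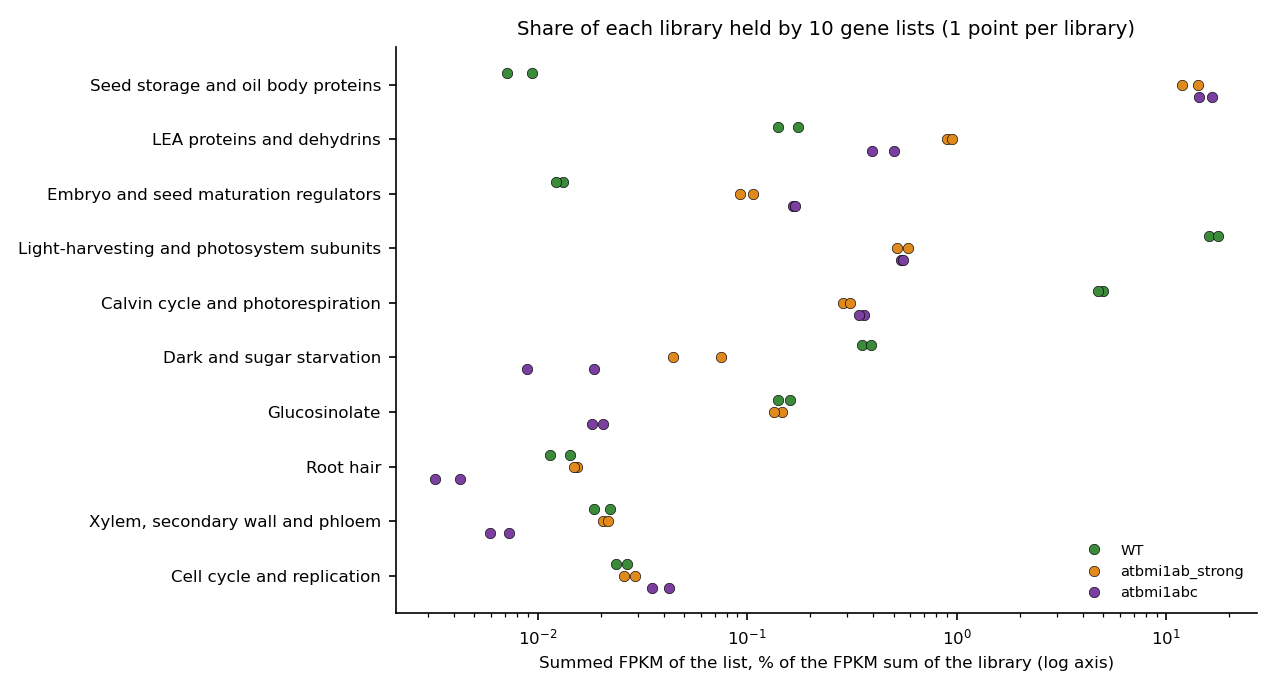
Summed FPKM of 10 gene lists as a percent of the FPKM sum of the library (log axis), 1 point per library of WT, atbmi1ab_strong and atbmi1abc. Storage genes hold 14.4% and 16.5% of the atbmi1abc libraries and light-harvesting genes 15.9% and 17.7% of the WT libraries, while glucosinolate, root hair and xylem lists are lowest in atbmi1abc.

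Light signalling genes were called at 6 higher and 9 lower of 18. Within the list the growth factors PIF4 (58.4 and 68.7 FPKM in WT and 0.180 and 0.508 in atbmi1abc; -5.59 ± 0.16, adjusted p = 8.98e-08) and PIF5 (-5.03 ± 0.09) fell, and ELIP1, which protects chloroplasts from strong light, had 5.65 and 4.14 FPKM in WT and 840.1 and 905 in atbmi1abc (7.22 ± 0.37, adjusted p = 1.08e-06). Measured against the 4 libraries of the single mutants, ELIP1 rose by 1.94 and its relative ELIP2 was not called, where it had risen by 4.83 ± 0.35 against WT. The clock list had 9 of 17 lower and 2 higher. LNK2, a coactivator of evening genes, had 255 and 265 FPKM in WT and 35.5 and 38.4 in atbmi1abc (-2.78 ± 0.16, adjusted p = 1.87e-06), the morning gene CCA1 fell by 2.51 ± 0.12 and RVE1 by 2.65 ± 0.38 on the log2 scale, and the evening gene PRR3 rose by 2.2 ± 0.25. The sources used here give no time of day for the harvest.

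Genes switched on by darkness and low sugar were lower in 8 of 9 cases, with a median of -6.30. ASN1, the asparagine synthetase of starved leaves, had 351 and 522 FPKM in WT and 0.280 and 0.132 in atbmi1abc (-8.48 ± 0.35, adjusted p = 3.8e-07) and 153 and 83.3 in atbmi1ab_strong. DIN10, a raffinose synthase-like gene, fell by 7.02 ± 0.44 and DRM1, a dormancy-associated gene, by 6.76 ± 0.26 on the log2 scale. DIN2, a beta-glucosidase gene, was the exception, with 0.417 and 0.252 FPKM in WT and 59.6 and 149 in atbmi1abc (6.16 ± 0.63, adjusted p = 4.95e-05). SEN1 and ASN1 fell less with the single mutants as reference (-5.97 and -4.34 against -10.00 and -8.48).

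Hormone lists held large changes in both directions. In the abscisic acid and gibberellin list, 12 of 19 were higher and 2 lower, with a median of 1.82. GA20OX3, a gibberellin oxidase gene, had 0.561 and 0.566 FPKM in WT and 287 and 235 in atbmi1abc (7.38 ± 0.73, adjusted p = 3.95e-05), and NCED9, the seed enzyme of abscisic acid synthesis, had 0.0405 and 0.0817 FPKM in WT and 18.3 and 5.48 in atbmi1abc (3.40 ± 0.45, adjusted p = 0.0002). RGL2, the repressor of germination among the DELLA proteins, rose by 2.56 ± 0.16. Against these, ABA1, an early enzyme of abscisic acid synthesis that also acts on xanthophylls, had 108 and 121 FPKM in WT and 21.7 and 24.8 in atbmi1abc (-2.25 ± 0.12, adjusted p = 1.07e-06), and GA3OX1 fell by 1.92 ± 0.31 on the log2 scale.

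Auxin genes were called at 8 higher and 14 lower of 27. IAA29 was listed at 0 in both atbmi1abc libraries and at 26.4 and 29.2 FPKM in WT. The influx carrier gene LAX3 had 27.1 and 25.1 FPKM in WT and 0.779 and 0.631 in atbmi1abc (-3.99 ± 0.12, adjusted p = 9.34e-08) and the efflux carrier gene PIN3 had 70.4 and 67.3 FPKM in WT and 4.23 and 5.07 in atbmi1abc (-3.63 ± 0.19, adjusted p = 1.2e-06). PIN2, the carrier of the root epidermis, moved the other way with 9.31 and 9.67 FPKM in WT and 94.1 and 104 in atbmi1abc (3.25 ± 0.23, adjusted p = 5.45e-06), as did YUC4, an auxin synthesis gene, which rose by 3.86 ± 0.23. Of 14 cytokinin genes 8 were lower and 3 higher. The synthesis gene IPT3 had 13.1 and 10.2 FPKM in WT and 0.441 and 0.138 in atbmi1abc (-3.30 ± 0.17, adjusted p = 1.13e-06), the response regulator gene ARR9 fell by 2.3 ± 0.16 on the log2 scale, and CKX3, a cytokinin-degrading enzyme gene, had 0.463 and 0.311 FPKM in WT and 9.82 and 11.2 in atbmi1abc (3.05 ± 0.19, adjusted p = 3.36e-06).

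Shoot meristem and WOX genes were higher in 13 of 21 cases and lower in 5. WOX12, known from new root founder cells, had 0.0888 and 0.537 FPKM in WT and 72.7 and 67.0 in atbmi1abc (5.77 ± 0.53, adjusted p = 2.44e-05). CUC1, which draws the border between organs, had 0.912 and 1.01 FPKM in WT and 20.5 and 26.4 in atbmi1abc (3.63 ± 0.16, adjusted p = 5.04e-07). The PLETHORA genes AIL6 and AIL7 rose by 3.24 ± 0.15 and 2.80 ± 0.20. The receptor gene CLV1 had 29.1 and 34.9 FPKM in WT and 8.70 and 9.68 in atbmi1abc (-1.69 ± 0.15, adjusted p = 2.25e-05) but fell by 0.38 against the single mutants, and WOX14 was listed at 0 in both atbmi1abc libraries with 1.69 and 1.82 FPKM in WT. Leaf polarity and growth genes were called at 12 higher and 7 lower of 23, with a median of 0.50. The growth coactivator gene GIF1 had 15.5 and 14.5 FPKM in WT and 91.6 and 97.0 in atbmi1abc (2.57 ± 0.08, adjusted p = 1.32e-07), GRF5 rose by 2.45 ± 0.17 and the abaxial gene KAN2 by 2.04 ± 0.19, while TCP2, which ends leaf growth, had 13.6 and 13.1 FPKM in WT and 1.79 and 2.05 in atbmi1abc (-2.3 ± 0.17, adjusted p = 8.17e-06) and the vein gene HB-8 fell by 1.31 ± 0.15 on the log2 scale.

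The stomatal list had 14 of 20 members lower and 4 higher, with a median of -1.26. FAMA, which forms the guard cell pair, had 13.6 and 14.3 FPKM in WT and 0.687 and 0.688 in atbmi1abc (-3.15 ± 0.16, adjusted p = 9.06e-07), and MYB60, a guard cell gene, had 16.2 and 14.9 FPKM in WT and 0.0913 and 0.564 in atbmi1abc (-3.66 ± 0.20, adjusted p = 1.37e-06). The channel gene KAT1 fell by 2.24 ± 0.13 on the log2 scale. ICE1, a bHLH protein needed for all steps of the lineage and for cold responses, went from 41.1 and 44.3 FPKM in WT to 328 and 345 in atbmi1abc (2.95 ± 0.12, adjusted p = 3.4e-07) and the receptor gene ERL1 rose by 1.80 ± 0.13. Trichome and epidermis genes were called at 4 higher and 7 lower of 17, and the median of -0.16 became 0.05 with quantile normalization. PDF1, of the outermost cell layer, had 235 and 225 FPKM in WT and 786 and 965 in atbmi1abc (1.92 ± 0.11, adjusted p = 2.13e-06), and MYB23, a trichome regulator, was listed at 0 in both atbmi1abc libraries with 2.84 and 4.80 FPKM in WT.

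The root pattern list was called in both directions. Of 16 tested genes of the stem cell niche, radial pattern and endodermis, 8 were higher and 7 lower, not far from the shares of all tested loci. Grouped after their calls were seen, the 7 lower ones were genes of the Casparian strip, the barrier of the mature endodermis. CASP1, one of its scaffold proteins, had 40.3 and 38.5 FPKM in WT and 0 and 0.131 in atbmi1abc (-5.25 ± 0.13, adjusted p = 4.71e-08), and the peroxidase gene PER64 had 21.5 and 19.3 FPKM in WT and 0 and 0.169 in atbmi1abc (-4.30 ± 0.13, adjusted p = 9.01e-08). CASP2 fell by 4.07 ± 0.14 on the log2 scale, CASP4 and CASP5 were listed at 0 in both atbmi1abc libraries, and their regulator MYB36 fell by 1.82 ± 0.13. The 8 higher ones were regulators. SCR, of the radial pattern, had 16.3 and 17.2 FPKM in WT and 70.6 and 73.4 in atbmi1abc (2.04 ± 0.11, adjusted p = 1.27e-06), WOX5, of the quiescent centre, had 2.02 and 1.02 FPKM in WT and 15.8 and 28.2 in atbmi1abc (3.16 ± 0.32, adjusted p = 4.77e-05), and PLT1, PLT2, MGP, JKD, SMB and BRN1 rose by 0.55 to 2.44. Across all lists, AT2G18540, BRN1, CASP4, CASP5, FLC, GUN4, HIRD11, HSD1, JKD, MGP, MYB36, PLT1, PLT2, SCR, SESA1, SMB, TIP1;1, TIP1;2, TIP2;1, TIP2;3, WOX5 and XERO1 lie outside the rule by which genes were named and were chosen after their values were seen.

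Markers of differentiated root and vascular cells were mostly lower. Of 11 root hair genes, 9 were lower and 1 higher. EXPA7, an expansin of hair cells, had 13.6 and 13.5 FPKM in WT and 2.07 and 1.56 in atbmi1abc (-2.37 ± 0.27, adjusted p = 9.44e-05), LRX1 fell by 2.50 ± 0.26 on the log2 scale, and WER, which marks cells without a hair, rose by 1.08 ± 0.16. In the suberin list 10 of 13 were lower and 2 higher. CYP86A1, the hydroxylase of root suberin, was listed at 0 in both atbmi1abc libraries with 17.5 and 20.3 FPKM in WT, and the feruloyl transferase gene ASFT had 14.1 and 13.6 FPKM in WT and 0.715 and 0.956 in atbmi1abc (-3.02 ± 0.18, adjusted p = 2.31e-06). All 11 tested xylem, secondary wall and phloem genes of 16 were lower. The vessel protease gene XCP2 had 41.0 and 33.6 FPKM in WT and 0.316 and 0.634 in atbmi1abc (-4.70 ± 0.15, adjusted p = 1.31e-07), the laccase gene LAC4 fell by 3.29 ± 0.16 and the cellulose synthase gene CESA8 by 2.49 ± 0.11 on the log2 scale. The share of root or vascular cells in these seedlings was not measured, and its part in these differences was not tested.

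These genes were higher in the double than in the triple mutant. CASP1 stood at 52.0 and 45.5 FPKM in atbmi1ab_strong (-5.54 ± 0.13, adjusted p = 2.58e-07 for atbmi1abc minus atbmi1ab_strong), EXPA7 at 14.2 and 14.5 (-2.46 ± 0.27, adjusted p = 0.00023), ASFT at 31.2 and 40.9 (-4.33 ± 0.18, adjusted p = 1.64e-06) and XCP2 at 25.8 and 20.8 (-4.04 ± 0.15, adjusted p = 1.01e-06). For each of them both libraries of the double mutant lay above both atbmi1abc libraries, as at 34.6% of all tested loci. Against atbmi1ab_strong, 10 of 11 root hair, 10 of 13 suberin and 11 of 11 xylem and phloem genes were lower and none was higher, where 25.2% of all tested loci were lower and 32.1% higher.

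Flowering time genes were called at 6 higher and 14 lower of 23. SVP, the MADS-box repressor of flowering, had 37.3 and 46.2 FPKM in WT and 0 and 0.323 in atbmi1abc (-5.21 ± 0.21, adjusted p = 3.7e-07), and the floral integrator SOC1 had 14.7 and 17.36 FPKM in WT and 0.0621 and 0 in atbmi1abc (-4.04 ± 0.26, adjusted p = 3.51e-06). FLC, the repressor that vernalization silences, had 3.20 and 6.06 FPKM in WT and 45.1 and 37.1 in atbmi1abc (2.95 ± 0.34, adjusted p = 0.000101). MFT, a phosphatidylethanolamine-binding protein that acts in seeds, had 2.79 and 3.28 FPKM in WT and 225 and 263 in atbmi1abc (5.92 ± 0.22, adjusted p = 2.26e-07), and MAF5, of the same clade as FLC, had 0.432 and 0.174 FPKM in WT and 12.8 and 15.9 in atbmi1abc (3.56 ± 0.17, adjusted p = 7.84e-07). Of 18 floral identity genes, 4 were expressed enough to be tested. SEP3, a co-factor of the floral organ genes, had 15.5 and 9.30 FPKM in WT and 0.147 and 0.370 in atbmi1abc (-3.38 ± 0.34, adjusted p = 4.57e-05), and its relative SEP2 had 0 and 0.0594 FPKM in WT and 9.003 and 8.98 in atbmi1abc (3.28 ± 0.14, adjusted p = 4.1e-07). SEP4 fell by 2.17 ± 0.16 on the log2 scale.

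In secondary metabolism, flavonoid and glucosinolate genes went opposite ways. Flavonoid and anthocyanin genes were higher in 12 of 15 tested cases of 25 listed, with a median of 2.69. FLS1, flavonol synthase, had 2.65 and 2.03 FPKM in WT and 223 and 229 in atbmi1abc (6.09 ± 0.35, adjusted p = 1.83e-06) and F3H, an early step, had 5.57 and 6.09 FPKM in WT and 316 and 315 in atbmi1abc (5.54 ± 0.27, adjusted p = 8.89e-07). MYBL2, a repressor of the pathway, had 143 and 182 FPKM in WT and 0.263 and 0.110 in atbmi1abc (-7.10 ± 0.37, adjusted p = 1.11e-06). With the single mutants as reference, 8 members were higher and 5 lower, FLS1 and F3H rose by 1.87 and 1.71, and MYBL2 fell by 3.08. Of 20 glucosinolate genes, 18 were lower and none higher. MAM1, which lengthens methionine side chains, had 83.8 and 79.4 FPKM in WT and 0 and 0.172 in atbmi1abc (-6.25 ± 0.15, adjusted p = 4.71e-08), the aminotransferase gene BCAT4 had 47.5 and 51.8 FPKM in WT and 0.119 and 0.0748 in atbmi1abc (-5.53 ± 0.16, adjusted p = 8.98e-08), and the myrosinase gene TGG2 had 119 and 128 FPKM in WT and 0.169 and 0.0529 in atbmi1abc (-6.81 ± 0.11, adjusted p = 2.55e-08). CYP83A1 fell by 5.43 ± 0.15 on the log2 scale.

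In the double mutant the glucosinolate genes went different ways. MAM1 stood below its WT level at 20.5 and 19.1 FPKM (-4.26 ± 0.15, adjusted p = 8.5e-07 for atbmi1abc minus atbmi1ab_strong) and BCAT4 above it at 102 and 98.5 (-6.53 ± 0.16, adjusted p = 2.71e-07). TGG2 stood at 0.256 and 0.398 FPKM, near the triple mutant (-0.26 ± 0.11, adjusted p = 0.0886). In all, 19 of 20 members were lower in the triple than in the double mutant, as were 25.2% of all tested loci. Defence genes were lower in 7 of 14 cases and higher in 1. PR4, a chitin-binding protein gene, had 75.6 and 78.4 FPKM in WT and 3.33 and 6.20 in atbmi1abc (-3.80 ± 0.32, adjusted p = 1.51e-05) and 116 and 129 in the double mutant, and EDS1 fell by 2.57 ± 0.39 on the log2 scale. FMO1, of systemic resistance, had 0.140 and 0.329 FPKM in WT and 11.2 and 13.3 in atbmi1abc (3.43 ± 0.22, adjusted p = 3.39e-06). The major latex proteins, small ligand-binding proteins of unclear role, were lower in 6 of 7 cases against WT and in 7 of 7 against the double mutant. MLP43 had 73.7 and 78.1 FPKM in WT and 0.221 and 0.971 in atbmi1abc (-5.63 ± 0.19, adjusted p = 1.73e-07) and 104 and 108 in atbmi1ab_strong.

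Heat shock genes depended on the reference. Against WT, 10 of 16 were higher and 4 lower. HSP70 had 9.89 and 6.86 FPKM in WT and 345 and 474 in atbmi1abc (5.45 ± 0.52, adjusted p = 3.24e-05), and HSP90.1 had 4.48 and 2.82 FPKM in WT and 123 and 175 in atbmi1abc (5.01 ± 0.54, adjusted p = 6.46e-05), whereas the factor genes HSFA7A and HSFA3 fell by 3.15 ± 0.49 and 1.83 ± 0.28 on the log2 scale. The single mutants had 384 ± 317 FPKM (atbmi1a) and 447 ± 24 FPKM (atbmi1b; SD, n = 2 each) of HSP70. With these 4 libraries as reference, none of the 16 was higher, 8 were lower, and HSP70 and HSP90.1 were not called (adjusted p = 0.827 and 0.962). Of the cold and dehydration genes 6 of 16 were higher and 4 lower, a split that became 10 higher without atbmi1abc replicate 2 and 7 higher and 8 lower against the single mutants. ADH1 had 24.2 and 21.4 FPKM in WT and 744 and 549 in atbmi1abc (4.75 ± 0.42, adjusted p = 2.18e-05) and RD29A had 4.75 and 3.71 FPKM in WT and 44.8 and 84.4 in atbmi1abc (3.59 ± 0.30, adjusted p = 1.4e-05), while the raffinose synthase gene RS5 had 10.6 and 10.0 FPKM in WT and 1.56 and 2.21 in atbmi1abc (-1.98 ± 0.13, adjusted p = 4.33e-06) and 55.2 and 65.5 in the double mutant.

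Cell cycle and replication genes were higher in 13 of 23 cases and lower in 3, with a median of 0.43. The helicase gene MCM2 had 6.11 and 5.18 FPKM in WT and 21.9 and 16.0 in atbmi1abc (1.57 ± 0.23, adjusted p = 0.000381), MCM3 rose by 1.65 ± 0.25, the cyclin gene CYCA2;1 by 2.0 ± 0.19 and the kinase gene CDKB1;1 by 1.53 ± 0.16. CYCD3;1, a cyclin of the entry into division, had 22.4 and 23.7 FPKM in WT and 12.7 and 11.6 in atbmi1abc (-0.87 ± 0.10, adjusted p = 7.36e-05). MCM2 and MCM3 rose by 0.74 and 0.75 with the single mutants as reference, where 7 members were higher. Against the double mutant 14 of 23 were higher and none lower, where 32.1% of all tested loci were higher and 25.2% lower. MCM2 stood at 7.22 and 6.61 FPKM in atbmi1ab_strong (1.32 ± 0.23, adjusted p = 0.00205 for atbmi1abc minus atbmi1ab_strong).

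Some loci were listed at 0 in both libraries of 1 genotype and at 10 FPKM or more in both of the other, 73 at 0 in atbmi1abc and 75 at 0 in WT. An exact 0 can be a failed estimate, so no fold is given. Of those at 0 in WT, the RING and TRAF-domain locus AT5G62800 had 241 and 271 FPKM in atbmi1abc, SDH2-3, the seed form of a succinate dehydrogenase subunit, had 132 and 165, and IDH-III, a subunit of isocitrate dehydrogenase, had 109.7 and 107. In atbmi1ab_strong, IDH-III had 17.7 and 16.3. Those at 0 in atbmi1abc included MLP328 (425 and 387 FPKM in WT) and AT3G62550, an adenine nucleotide hydrolase-like locus (76.5 and 107). Several chloroplast-encoded loci were among them, and their part in the count was not separated from the plastid difference between the WT libraries.

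Outside the lists, 1 of the most abundant transcripts of atbmi1abc was that of AT1G47540, a scorpion toxin-like knottin locus, with 8.78 and 7.44 FPKM in WT and 18006 and 20556 in atbmi1abc (11.05 ± 1.64, adjusted p = 0.00041). LTP2, a lipid transfer protein gene, had 265 and 137 FPKM in WT and 4979 and 5340 in atbmi1abc (4.75 ± 0.44, adjusted p = 2.83e-05), and PER1, a seed peroxiredoxin gene, had 0.989 and 0.634 FPKM in WT and 1640 and 1802 in atbmi1abc (9.90 ± 1.28, adjusted p = 0.000182). Among the genes that fell furthest, GRP9, a glycine-rich protein gene, had 368 and 363 FPKM in WT and 0.729 and 0.869 in atbmi1abc (-7.67 ± 0.10, adjusted p = 1.96e-08), and CCL, a CCR-like gene, had 792 and 1061 FPKM in WT and 0.661 and 4.82 in atbmi1abc (-8.21 ± 0.54, adjusted p = 3.92e-06). Measured against the single mutants, CCL fell by 2.34 on the log2 scale. GRP9 was at 779 and 829 FPKM in atbmi1ab_strong, above both WT libraries.

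Called loci were spread over the chromosomes. By nuclear chromosome, 35.9% to 36.8% of tested loci were higher and 36.9% to 38% lower. Runs of at least 5 neighbouring protein-coding loci that were all called by more than 1 in the same direction numbered 4 higher and 11 lower. Of all tested loci, 19.1% were called higher and 23.5% lower by more than 1. How many runs these shares alone would give was not tested. The longest higher run held 8 loci on chromosome 2 (TAIR10.1, 18049799 to 18071826, AT2G43470 to AT2G43535) with fold changes of 1.01 to 4.18 and included the trypsin inhibitor genes TI1 and TI2. The albumin genes SESA1 to SESA4 stood in a run of 5 on chromosome 4 (13607329 to 13619312). The longest lower run held 6 loci on chromosome 2 (12585856 to 12599299, AT2G29290 to AT2G29340), and 3 of its members, AT2G29290, AT2G29310 and AT2G29320, were listed at 0 in both atbmi1abc libraries. Copies within such clusters can share reads.

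Compared directly with atbmi1ab_strong, 57.3% of tested loci were called, 32.1% higher and 25.2% lower in atbmi1abc. This split depended on scaling: 56.1% of the calls were higher, against 47.6% after median-of-ratios scaling and 64.0% after quantile normalization, and the median over all loci was 0.099, 0.004 and 0.204 in turn. Among the genes with a symbol that were furthest above the double mutant were VIM5, WOX2, BNQ3, BBX10, ASPGB1 and PDF1.3. CRA1 and CRU3 ranked with them only through values of 0 in the double mutant that can be failed estimates, so no direction is drawn for them. BNQ3, a small HLH protein gene, had 2.005 and 4.02 FPKM in WT and 112 and 93.1 in atbmi1abc and 2.61 and 0 in atbmi1ab_strong (5.76 ± 0.57, adjusted p = 0.000123). ASPGB1, an asparaginase-type hydrolase gene, had 3.50 and 3.66 FPKM in WT and 93.7 and 123 in atbmi1abc and 8.05 and 7.40 in the double mutant (3.63 ± 0.27, adjusted p = 2.81e-05). BBX10, a B-box factor gene, was listed at 0 in WT, had 56.6 and 28.1 FPKM in atbmi1abc and 0.312 and 0.323 in atbmi1ab_strong.

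The 8 genes with a symbol that were furthest below the double mutant included GRP9, DOT1, another glycine-rich protein gene, and KTI1, a Kunitz trypsin inhibitor gene. DOT1 had 222 and 244 FPKM in WT and 0.832 and 1.88 in atbmi1abc and 340.2 and 314 in atbmi1ab_strong (-7.16 ± 0.18, adjusted p = 3.05e-07), and KTI1 had 42.1 and 55.0 FPKM in WT and 0.479 and 0.601 in atbmi1abc and 146 and 121 (-6.44 ± 0.14, adjusted p = 2.35e-07). In both, the double mutant was above WT and the triple mutant far below it. By list, 10 of 11 DNA methylation genes, 14 of 23 cell cycle genes and 11 of 23 leaf genes were higher than in the double mutant and at most 1 lower in each, counts that were 10, 14 and 10 after median-of-ratios scaling. The storage list had 2 of 20 called, CRA1 and CRU3, and 3 higher and 3 lower without atbmi1a replicate 1. Dark and sugar starvation genes were lower in 8 of 9 cases and cytokinin genes in 10 of 14, and cold genes in 8 of 16.

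**Figure D5:**
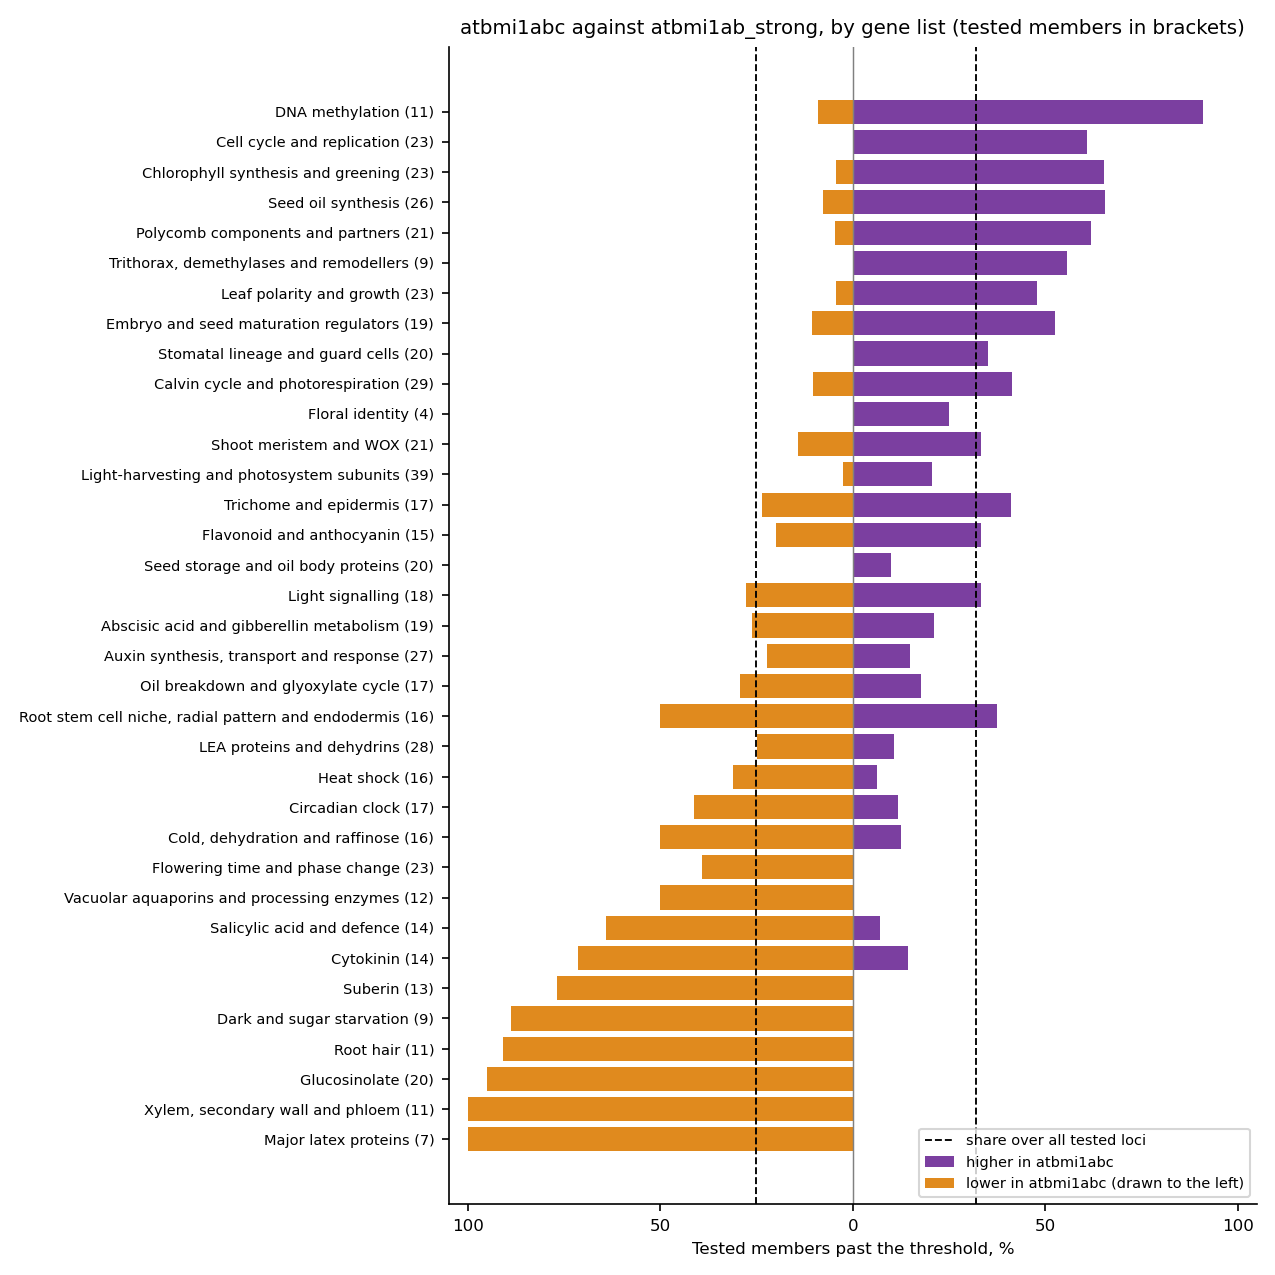
Percent of the tested members of each gene list called higher (to the right) or lower (to the left) in atbmi1abc than in atbmi1ab_strong; dashed lines mark the shares over all tested loci, 32.1% and 25.2%. Major latex protein, xylem, glucosinolate and root hair lists lie almost wholly on the lower side, while DNA methylation and cell cycle lists lie on the higher side.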

How the data were processed

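RNA-seq of seedlings was analysed from 1 table per library, 27086 loci each. The deposited values were taken as FPKM. Per the submitters' processing notes the tools were TopHat, Cufflinks, Cuffdiff and FastQC, and TAIR10 was the build. The file headers call the values only expression, and no source says if Cuffdiff applied a scaling between libraries, so the unit was read from these tools and from the values, and read counts and their depth are unknown. Relative depth was estimated from the smallest steps between low values. No interval for counting error can be given for FPKM.

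From these values, log2(FPKM + 1) was fitted with limma 3.58.1 (R 4.3.3) over all 10 libraries of 5 genotypes, since 2 libraries per group leave little to estimate the spread from. The fit took the 19460 loci that averaged 1 FPKM or more over the 10 libraries, and p-values were adjusted by the Benjamini-Hochberg method over all of them. The single-mutant libraries as reference and other pseudocounts, filters and scalings were tried as alternatives. So was leaving out each library of the genotypes compared, or atbmi1a replicate 1. The other single-mutant libraries were not left out singly.

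The genotypes compared, the gene lists and the tests were chosen with earlier results of these data known. Genes were named by a rule: the targeted genes, all Polycomb and embryo list members, the 12 highest and 12 lowest fold changes, per list up to 4 called members with the largest change and up to 2 against its direction, the 10 highest levels, the 10 highest loci at 0 in the other genotype, and the 8 furthest each way from the double mutant. Of the 714 listed genes, 710 were in the files. Those sharing a merged locus, PGK1, TPS9, bZIP53 and deltaVPE, were left out. Promoters were cut from the RefSeq genome TAIR10.1 by the start of each matched gene (26177 loci matched), and shares of promoters carry exact 95% binomial intervals. Some results that the rule would name are not reported here.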

Additional observations from a re-analysis of the deposited data

How the results depend on the processing

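Leaving out 1 library at a time gave 6348 to 6511 loci higher and 6677 to 6893 lower in atbmi1abc than in WT, and 3596 to 3744 higher and 4498 to 4587 lower by more than 1 on the log2 scale. Against atbmi1ab_strong it gave 4662 to 5069 higher and 4050 to 4367 lower, and 938 to 1064 higher and 2832 to 3053 lower by more than 1. Where an arm was left with 1 library, that library is assumed to vary like the other genotypes. Quantile normalization raised the loci higher by more than 1 than in atbmi1ab_strong to 1510. With 5 in place of 10 FPKM as the minimum in the other genotype, 112 loci were at 0 in both atbmi1abc libraries and 113 in both WT libraries. Measured against the single mutants, AtBMI1B was called in the other direction (0.59), while AtBMI1A (-0.32), VRN5 (-0.06) and ELIP2 (-0.37) had the other sign without being called, and the cause was not tested. For AtBMI1A and AtBMI1B this reference includes libraries mutated in the gene itself. In the same comparison 5 other named genes lost their call, bZIP10 gained one, and 23 kept theirs but moved by over 1.5 times, among them VEL1 (-0.95), JMJ13 (0.67), SYD (1.02), WOX2 (2.44), CCA1 (-4.28), DRM1 (-3.59), RS5 (-3.13), GA3OX1 (-3.12), JKD (1.44) and LRX1 (-1.25). Of 60 promoter shares, 27 moved beyond their interval with 150 in place of 250 bases.

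The replicate numbers showed no clear pairing of the libraries: deviations of same-numbered WT and atbmi1abc libraries correlated at -0.009, and those of atbmi1ab_strong and atbmi1abc at 0.119. With 1 difference per genotype, such a correlation cannot show whether same-numbered libraries were grown or prepared together. With the replicate number as a block, 7014 loci were higher and 7277 lower than in WT, and 6187 higher and 4850 lower than in atbmi1ab_strong. Leaving out 1 library changed the call against WT of 1 of the 189 named genes, and that against atbmi1ab_strong of 33 of 193. Folds of low genes depend on the pseudocount, and 2 libraries per genotype limit all values.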
